A study of Mus musculus with 8 samples.

Results

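Loss of CAF-1 was examined in immortalised mouse myeloid progenitors by setting the 2 CAF-1 OFF RNA-seq libraries against 4 reference libraries, 6 of the 8 libraries in the series. The libraries were chosen by their labels, and all 34199 annotated genes entered, of which the 13080 that passed a filter on low counts were tested. The cells (iGMPs) were granulocyte-macrophage progenitors of C57Bl/6 origin, kept self-renewing by a fusion of the HOXA9 transcription factor with the estrogen receptor, and they carried a GFP reporter driven by a lysozyme promoter. All 6 libraries came from cells grown in stem cell factor and 150 ng/ml estradiol. In the CAF-1 OFF group, 500 µM IPTG for 48 h switched on a short hairpin RNA against Chaf1b. The references were uninduced cells, sampled at 0 h, and IPTG-treated control cells, sampled at 48 h, whose hairpin vector and IPTG dose are not given in the labels. Each group had 2 libraries. In the 2 remaining libraries, HOXA9 OFF, estradiol was withdrawn for 48 h without IPTG, and they serve below as a yardstick only. The lines were clonal by the study's description, and its supplement mentions independent sub-clones for RNA-seq, but the labels tie no library to a sub-clone or culture. The p-values therefore measure the spread between these libraries, which may be technical.

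New H3 and H4 histones are placed on DNA behind the replication fork by CAF-1, a histone chaperone. It consists of a large subunit (Chaf1a), a middle subunit (Chaf1b) and a histone-binding subunit (Rbbp4). Granulocyte-macrophage progenitors give rise to neutrophils and macrophages. Neutrophil precursors make primary granules first (myeloperoxidase, elastase), then the secondary and tertiary granules that hold lactoferrin, lipocalin and gelatinases.

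Gene-level totals ran from 14044284 to 22423837 reads per library. Levels are given in CPM, the reads of a gene relative to the library total and scaled by the trimmed mean of M values, listed in the order replicate 1 then replicate 2, and a floor of 3 reads was worth 0.128 to 0.212 CPM. CPM is not corrected for transcript length, so it compares libraries and not genes. A gene was called when edgeR's quasi-likelihood test gave an adjusted p under 0.05 (Benjamini-Hochberg over all 13080 genes) and a change of at least 1.5-fold, and log2 fold changes carry their standard error (SE). The share of reads that fell outside genes was 14.6% in IPTG-treated control replicate 1 and between 5.30% and 7.79% in the other 7 libraries. The 4 reference libraries paired by replicate number rather than by group. The standard deviation of the log2 difference across genes was 0.41 between both replicates 1 and 0.38 between both replicates 2, against 0.52 to 0.56 for the other pairs of reference libraries. What the numbers share is not stated in the labels. The progenitor identity of the references was visible in their defining genes, with Kit (the stem cell factor receptor) at 576 to 678 CPM, Cd34 (a progenitor surface protein) at 1647 to 1872 CPM and Mpo (myeloperoxidase) at 3988 to 6449 CPM.

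The targeted gene was low in both CAF-1 OFF libraries. Chaf1b (chr16:93884146-93906360, mm9) was at 96.8 and 100.3 CPM in the uninduced libraries, 95.1 and 102 CPM in the IPTG-treated control, and 18.7 and 9.72 CPM in the CAF-1 OFF libraries. It fell by 2.79 on the log2 scale against the pooled references (SE 0.25; adjusted p = 0.000796 by edgeR), by the same amount against each reference alone, and the groups did not overlap. The other subunits stayed within 1.5-fold. Chaf1a differed by a log2 value of -0.13 (edgeR adjusted p = 0.505), Rbbp4 by -0.29 (0.0804) and Rbbp7, a close relative of Rbbp4, by -0.31 (0.0426). CAF-1 OFF replicate 2 had less Chaf1b. It lay farther from the references than replicate 1 in 934 of the 1131 genes that held as higher, as defined next. The same was true of 274 of the 338 that held as lower. These genes were called with replicate 2 in the fit, which favours such counts. Over all tested genes, 25.6% to 29.5% were at least 1.5-fold apart between replicate 1 and a reference library, and 32% to 36.1% between replicate 2 and a reference library. A link to the Chaf1b level was not tested.

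Against the pooled references 2268 genes were called, 17.3% of those tested, and calls upward outnumbered calls downward: 1748 genes (13.4%) were higher in CAF-1 OFF cells and 520 (3.98%) were lower. The median log2 fold change over all tested genes was 0.01. Against the uninduced cells alone 1836 genes were called (14%), 1378 higher (10.5%) and 458 lower (3.5%). Against the IPTG-treated control alone the count was 1670 (12.8%), with 1251 higher (9.56%) and 419 lower (3.2%). Both lists share the CAF-1 OFF libraries. A gene was taken to hold when it was called in the same direction against the pooled references and against each reference group alone. This was true of 1469 genes (11.2%), 1131 higher (8.65%) and 338 lower (2.58%), and these are the genes whose call does not rest on the choice of reference. In all 1469 both CAF-1 OFF libraries lay outside the range of the 4 references. Over all tested genes, both lay above that range in 30.8% and below it in 28.2%.

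The remaining 799 genes called against the pooled references did not hold, and none of them changed direction between references. Of these, 290 were also called against uninduced cells but not against the IPTG-treated control, 145 against the IPTG-treated control but not against uninduced cells, and 364 against neither alone. All 799 had the same sign against both, 660 differed by at least 1.5-fold from both, and in 792 the CAF-1 OFF libraries lay outside all 4 references. A further 77 genes were called against uninduced cells only and 56 against the IPTG-treated control only. The references themselves were hard to tell apart: no gene was called between IPTG-treated control and uninduced cells by edgeR, with 100 genes (0.765%) under an unadjusted p of 0.05, whereas DESeq2 called 5 genes, all higher in the control. The 5 with the widest gap between the references, picked by a set rule, were Gm15998, Gm16758, Ceacam18, Amica1 and Bnipl. Each was at or below 0.491 CPM in every reference library. The long non-coding RNA Gm15998, for example, was at 0 and 0 CPM in uninduced, 0.141 and 0.491 CPM in IPTG-treated control and 1.00 and 1.36 CPM in the CAF-1 OFF libraries, and was called against the first group and not the second.

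**Figure D1:**
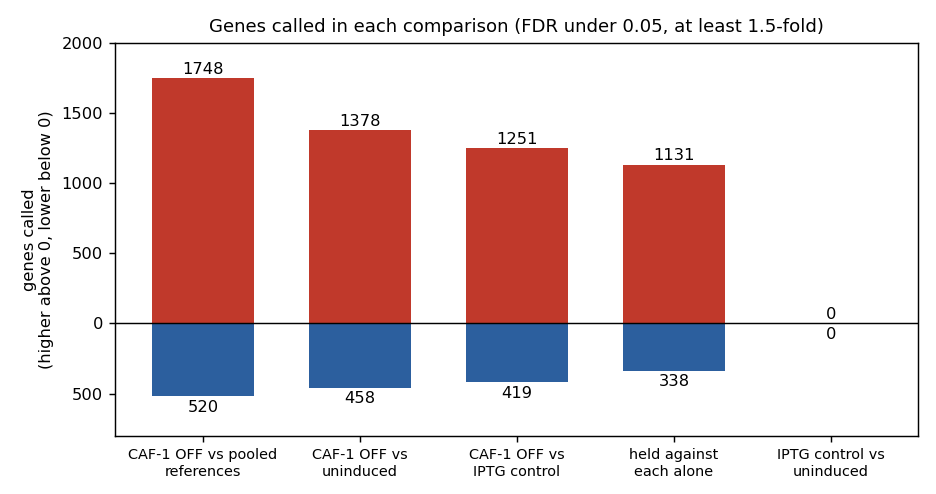
Number of genes called higher or lower under CAF-1 loss against the pooled references, against each reference alone, and held against all of them, with the IPTG-treated control against uninduced cells as background. Calls upward exceed calls downward in each CAF-1 OFF comparison (1748 and 520 against the pooled references, 1131 and 338 held), and no gene is called between the references.

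The number of calls leaned on single libraries. Without CAF-1 OFF replicate 2, 606 genes were called against the pooled references (527 higher, 79 lower) and 210 held, and against uninduced and IPTG-treated control cells alone the counts were 272 and 237. Leaving out a reference library left 1708 to 2097 calls against the pooled references but cut the held genes to 155 without uninduced replicate 1, 658 without uninduced replicate 2, 292 without IPTG-treated control replicate 1 and 183 without IPTG-treated control replicate 2. In such a fit the lone library of a group is assumed to vary like the other groups. The calls against uninduced cells alone fell to 157 without uninduced replicate 1 and 836 without replicate 2, and those against the IPTG-treated control alone to 295 and 199 without its replicates 1 and 2. When reads of the same-numbered reference libraries were summed, an alternative chosen after seeing the data that leaves 2 references in place of 4, 1714 genes were called and 1418 of the 1469 held genes (96.5%) were among them.

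The level in the references bears on how a gene could be called. A gene near the floor in the references passed the filter only where another group was high, and could hardly be called lower, so the shares by level that follow are a description of the calls and no finding about low genes. Of the 1972 tested genes with a mean below 1 CPM in the references, 30.9% were called higher and 0.304% lower. Of the 4049 genes above 64 CPM, 3.36% were called higher and 5.31% lower. Of the called genes, 55.9% to 58.7% held in the classes below 16 CPM, 74.4% from 16 to 64 CPM and 79.2% above. Among the 1131 genes that held as higher, 31 had no read in any of the 4 references and 88 had at most 3 reads over all of them together. Most called genes were protein-coding: 1623 of 11831 tested were higher and 493 lower, while of 368 long intergenic non-coding RNAs 50 were higher and 6 lower.

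**Figure D2:**
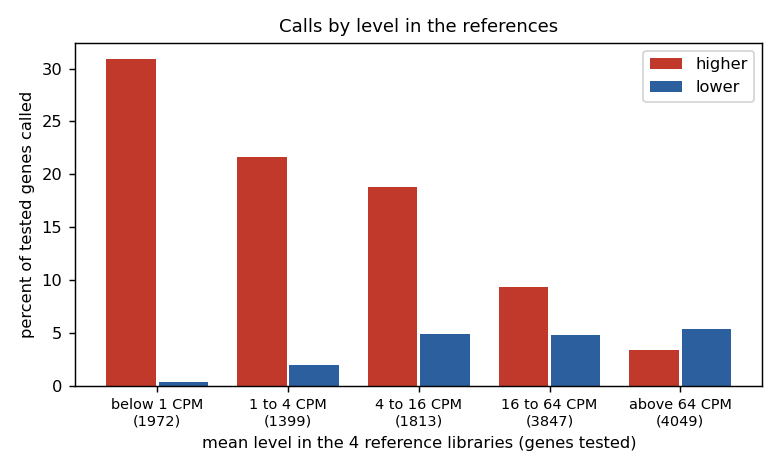
Percentage of tested genes called higher or lower under CAF-1 loss against the pooled references, by mean level in the 4 reference libraries in CPM classes. Genes near the floor in the references entered the test only through a group where they were high. The share called higher declines from 30.9% below 1 CPM to 3.36% above 64 CPM, and the share called lower goes from 0.304% to 5.31%.

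Functions and lineages were followed with 36 gene lists, 17 of lineages and 19 of cell functions. Of the 355 lineage genes 216 were tested, of which 112 were called higher and 2 lower, both of the latter progenitor genes. The lists were drawn up with earlier results of these data known. Among the function lists 69 of 423 tested members were higher and 34 lower. The counts are over members that passed the filter on low counts, which a gene silent in the references passes only through a group where it is high. Each count below is read beside the 13.4% of all genes called higher and the 3.98% called lower.

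**Figure D3:**
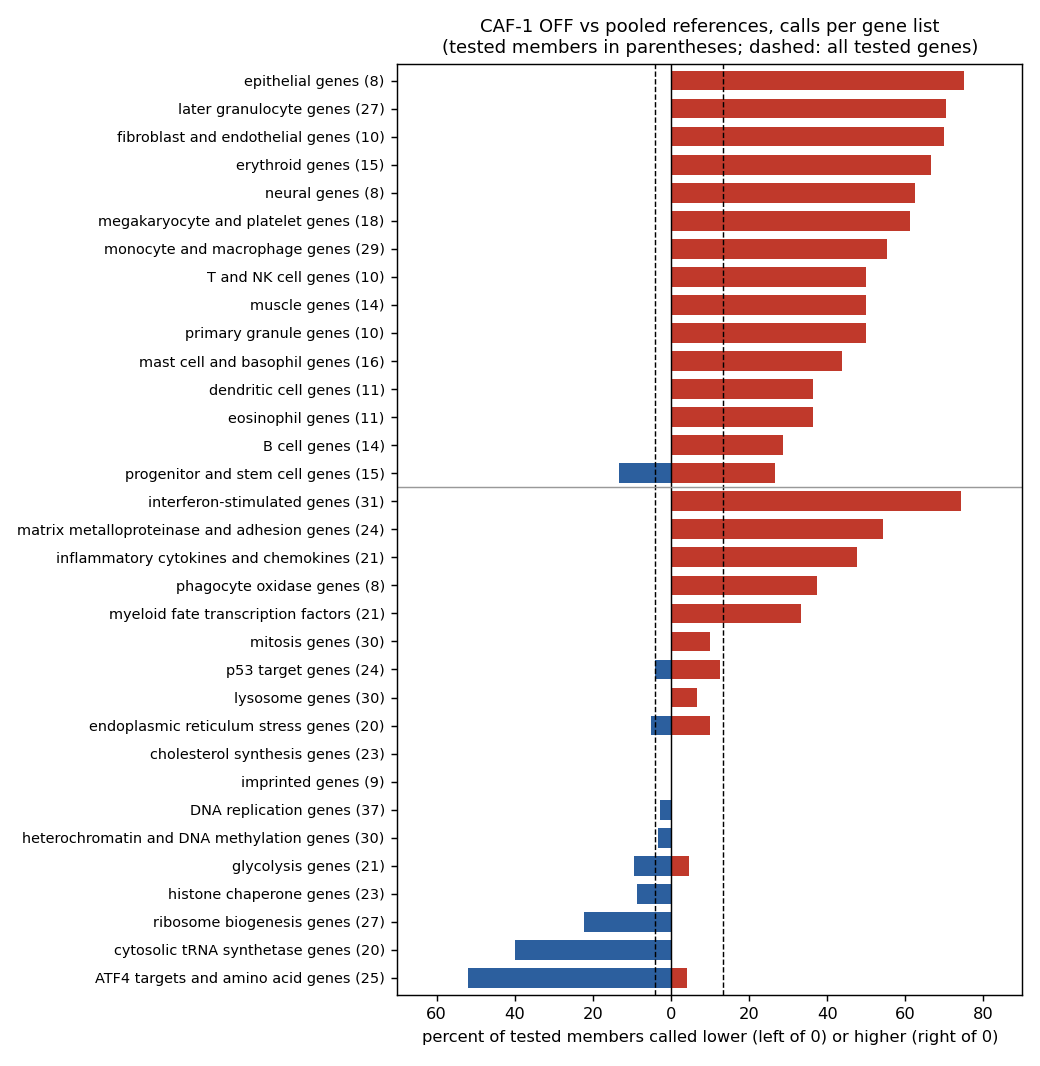
Change in CAF-1 OFF cells against the pooled references in the 33 lists with at least 8 tested members. Values cover members that passed the filter, which a gene silent in the references passes only through a group where it is high. Called higher were 70.4% of later granulocyte (median log2 2.20), 55.2% of monocyte (2.14) and 74.2% of interferon-stimulated genes (2.13), against 13.4% of all tested genes. Called lower were 52% of ATF4 (-0.82), 40% of tRNA synthetase (-0.58) and 22.2% of ribosome biogenesis genes (-0.46), against 3.98%. The neural, epithelial and fibroblast and endothelial lists had 8, 8 and 10 tested members of 18, 20 and 20, so their medians are not ranked here.

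Genes of later neutrophil maturation were called higher in 19 of 27 tested members, 16 of them held, and none was lower. The median log2 fold change of the list was 2.20. Its summed level was 426 to 598 CPM in the references, 2771 and 4585 CPM in the CAF-1 OFF libraries, and 28290 and 20710 CPM in the HOXA9 OFF libraries. Mmp8 (chr9:7558429-7568486, mm9), the neutrophil collagenase, was at 58.3 and 43.4 CPM in uninduced, 61.0 and 42.6 CPM in IPTG-treated control and 1091 and 1937 CPM in the CAF-1 OFF libraries. It rose by 4.88 on the log2 scale (SE 0.28, edgeR adjusted p = 0.000193) and was higher in CAF-1 OFF than in HOXA9 OFF cells, where it stood at 556 and 376 CPM. S100a9, a subunit of the calcium-binding protein calprotectin, went the other way in that last comparison. It was at 0.797 to 0.935 CPM in the references, 15.0 and 28.1 CPM in CAF-1 OFF and 1818 and 1125 CPM in the HOXA9 OFF libraries, a log2 rise of 4.64 over the references (SE 0.34, edgeR adjusted p = 0.000427).

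The granule proteins did not all follow. Lcn2, the iron-trapping lipocalin, was at 30.4 to 49.8 CPM in the references and at 126 and 182 CPM in the CAF-1 OFF libraries, a log2 rise of 1.97. Ngp, a neutrophil granule protein, rose by 2.14 but stayed at 5.74 and 3.40 CPM, against 1186 and 988 CPM in the HOXA9 OFF libraries. Ltf, which encodes lactoferrin, was at 0.245 to 0.707 CPM in the references and 0.474 and 0.523 CPM in the CAF-1 OFF libraries, within the range of the references, while HOXA9 OFF cells had 1440.4 and 969 CPM. Its log2 difference was 0.27 (SE 0.52, edgeR adjusted p = 0.729). In a direct test 23 of the 27 tested list members were lower in CAF-1 OFF than in HOXA9 OFF cells and 1 was higher, in a comparison where 43.5% of all genes were called, 22.2% higher and 21.4% lower. The list had 13 calls without CAF-1 OFF replicate 2.

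Primary granule genes, which these progenitors already express, changed less. Of 10 tested, 5 were higher and 4 held. Fcnb, a ficolin of the primary granules, was at 23.0 to 36.7 CPM in the references and 119.6 and 149.7 CPM in the CAF-1 OFF libraries (log2 rise 2.18). Ctsc, the protease that activates granule proteases, was at 101 to 115 CPM and then 169 and 198 CPM (log2 rise 0.76). Mpo was at 7749 and 7807 CPM in the CAF-1 OFF libraries, above all 4 references, yet its log2 difference of 0.60 did not pass (edgeR adjusted p = 0.0969). Elane, neutrophil elastase, was called (log2 1.58) but not without CAF-1 OFF replicate 2 (edgeR adjusted p = 0.148), and the list then had 2 calls.

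Monocyte and macrophage genes were called higher in 16 of 29 tested members, 8 of which held, with a list median of 2.14, or 1.83 with members absent from the references set at their lower bound. CAF-1 OFF replicate 2 was the farther library in all 16, and without it 4 members were called. Without uninduced replicate 1 the count was 9, and without IPTG-treated control replicate 2 it was 10. Fcgr4, an activating Fc receptor, was named for its place among the highest held genes and not through this list. Fcgr4 was at 0.428 to 0.712 CPM in the references and at 10.2 and 23.4 CPM in the CAF-1 OFF libraries (log2 rise 4.80, SE 0.37). Ms4a4c, a membrane protein of the MS4A family, was at 0.0707 to 0.134 CPM and then 3.47 and 11.0 CPM (log2 rise 5.91, SE 0.55). Csf1r, the macrophage growth factor receptor, was at 2.76 to 5.65 CPM in the references, 11.5 and 17.0 CPM in CAF-1 OFF and 465 and 853 CPM in the HOXA9 OFF libraries. Its log2 value of 1.74 was called, though not without CAF-1 OFF replicate 2 (edgeR adjusted p = 0.11). Of the list's members, 17 were lower in CAF-1 OFF than in HOXA9 OFF cells and 1 was higher. In bulk RNA, more cells of a type and more RNA per cell cannot be told apart, here or in any list below.

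The phagocyte oxidase, which makes superoxide in neutrophils and macrophages, had 3 of 8 genes higher and 2 held, but a list median of -0.02, and all 8 were lower than in HOXA9 OFF cells. Its summed level was 1743 to 1996 CPM in the references and 1819 and 1928 CPM under CAF-1 loss, within their range. Cybb, its catalytic subunit, was at 0.312 and 0.171 CPM in uninduced, 0.212 and 0.123 CPM in IPTG-treated control and 7.32 and 24.6 CPM in the CAF-1 OFF libraries. It rose by 6.28 on the log2 scale (SE 0.71, edgeR adjusted p = 0.00165), and kept its call without each library in turn. Without CAF-1 OFF replicate 2 it was the list's 1 remaining call. Of the wider set of matrix metalloproteinases and adhesion molecules, 13 of 24 were higher and 11 held. Mmp13, a collagenase of tissue remodelling, went from 0.283 to 1.20 CPM in the references to 35.5 and 71.8 CPM (log2 rise 6.03, SE 0.74).

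The gains were not limited to the granulocyte and macrophage branches. Megakaryocyte and platelet genes were higher in 11 of 18 tested members, 9 of which held, and all 18 had a positive log2 value. Itga2b, the platelet integrin alpha chain CD41, was at 14.9 and 17.5 CPM in uninduced, 17.8 and 20.5 CPM in IPTG-treated control and 109 and 74.5 CPM in the CAF-1 OFF libraries (log2 rise 2.38, SE 0.17, edgeR adjusted p = 0.000419). Pf4, a platelet chemokine, was at 1.91 to 3.04 CPM and then 55.7 and 124 CPM, and its log2 value of 5.13 missed the threshold without CAF-1 OFF replicate 2 (edgeR adjusted p = 0.0536). The list had 6 calls without that library. Against HOXA9 OFF cells 5 members were higher and 5 lower. The summed level was 1941 to 2254 CPM in the references, 3882 and 4538 CPM in CAF-1 OFF and 11247 and 9547 CPM in the HOXA9 OFF libraries.

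Erythroid genes were higher in 10 of 15 tested members, 8 held, with a median of 1.76, and 12 of the 15 were higher in CAF-1 OFF than in HOXA9 OFF cells. Gfi1b, a repressor needed for erythroid and megakaryocyte development that stands in both lists, was at 0.757 and 0.385 CPM in uninduced, 0.707 and 0.184 CPM in IPTG-treated control, 18.1 and 35.2 CPM in CAF-1 OFF and 5.32 and 3.17 CPM in the HOXA9 OFF libraries. It rose by 5.73 over the references (SE 0.47, edgeR adjusted p = 0.00057) and by 2.65 over HOXA9 OFF cells (adjusted p = 0.00356). Epor, the erythropoietin receptor, was at 0.918 to 1.58 CPM in the references and at 4.90 and 3.71 CPM in the CAF-1 OFF libraries (log2 rise 1.76). The summed level of the list moved little, from 810 to 1034 CPM in the references to 1093 and 1032 CPM. Without either CAF-1 OFF library 6 members were called.

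Mast cell and basophil genes were higher in 7 of 16 tested members and 4 held. The basophil protease Mcpt8 was at 28.9 to 34.4 CPM in the references, 267 and 228 CPM in CAF-1 OFF and 7.38 and 5.95 CPM in the HOXA9 OFF libraries (log2 rise 2.98, SE 0.12, edgeR adjusted p = 6.9e-05). Cpa3, the mast cell carboxypeptidase, was at 107 to 155 CPM and then 764 and 423 CPM (log2 rise 2.17). The count was 4 without either CAF-1 OFF library, without IPTG-treated control replicate 2, and with same-numbered references summed. Of 11 eosinophil genes 4 were higher and 3 held, among them Alox15, a lipoxygenase (log2 rise 2.63). By direct test 9 of the 11 were lower in CAF-1 OFF than in HOXA9 OFF cells and none was higher.

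Lymphoid genes were also among those that rose. The B cell, T and NK cell and dendritic cell lists have 20, 28 and 19 members. Of the T and NK cell members 9 had no read in the 6 libraries. Members silent in the references passed the filter only through a group in which they were high. Of 14 tested B cell genes 4 were higher and 2 held, and of 10 tested T and NK cell genes 5 were higher and 4 held. Without CAF-1 OFF replicate 2 these counts were 2 and 3. Dntt, the DNA polymerase that adds bases at antigen receptor joints, was at 1.47 to 1.63 CPM in the references, 16.9 and 11.4 CPM in CAF-1 OFF and 0 in both HOXA9 OFF libraries (log2 rise 3.21, SE 0.25, edgeR adjusted p = 0.000796). Thy1, a T cell surface protein, was at 20.7 and 11.9 CPM in uninduced, 19.9 and 9.69 CPM in IPTG-treated control and 159 and 71.4 CPM in the CAF-1 OFF libraries (log2 rise 2.89). Prf1, which encodes the pore-forming perforin, was at 0.565 to 1.47 CPM and then 9.05 and 17.7 CPM (log2 rise 4.07). H2-Aa, an MHC class II chain of antigen-presenting cells, had no read in any reference and 4.90 and 3.92 CPM in the CAF-1 OFF libraries, at least 20.8-fold higher than a floor of 3 reads over the references. Of the 11 dendritic cell genes 4 were higher, or 2 without CAF-1 OFF replicate 1 and 1 without replicate 2.

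Genes of tissues outside the blood were among those that rose. The neural list has 18 members, of which 8 passed the filter and 5 were higher, and the epithelial list 20, of which 8 passed and 6 were higher. Members silent in the references passed only through a group in which they were high, so these counts describe the genes named and not the lists. The neural sum went from 14.5 to 16.6 CPM in the references to 142 and 249 CPM, and most of the gain was Tub, the gene of the neuronal protein tubby, which had at most 0.0856 CPM in a reference and 105 and 205 CPM under CAF-1 loss. The epithelial sum went from 8.22 to 11.7 CPM to 252 and 449 CPM, of which Tgm3, a transglutaminase of the skin, made up 215 and 375 CPM. The epithelial list's median log2 value of 3.5 was 2.40 with members absent from the references set at their lower bound. Of 14 tested muscle genes 7 were higher, and of 10 tested fibroblast and endothelial genes 7, in lists with reference sums of 99.1 to 145 CPM and 253 to 289.5 CPM. Shank3, a scaffold of the postsynaptic density, was at 0.134 to 0.495 CPM in the references, 15.5 and 13.8 CPM in CAF-1 OFF and 0 in both HOXA9 OFF libraries (log2 rise 5.49, SE 0.34, edgeR adjusted p = 0.000427). Folr1, an epithelial folate receptor, was at 0.312 to 0.684 CPM and then 16.7 and 16.5 CPM (log2 rise 5.10). Tie1, an endothelial receptor kinase, had reads in the uninduced libraries alone among the references (0.0890 and 0.0428 CPM) and was at 1.32 and 0.993 CPM in the CAF-1 OFF libraries, a ratio of 29.4 with a 95% counting interval of 9.4 to 147.8. Of these lists the muscle list had 4 calls and the epithelial list 3 without CAF-1 OFF replicate 2. No germline gene was called among 4 tested. The only tested pluripotency gene, Lin28a, an RNA-binding protein of early development, was at 26.4 to 27.4 CPM and then 42.0 and 44.6 CPM (log2 0.69, called, but not without CAF-1 OFF replicate 2, edgeR adjusted p = 0.0564).

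**Figure D4:**
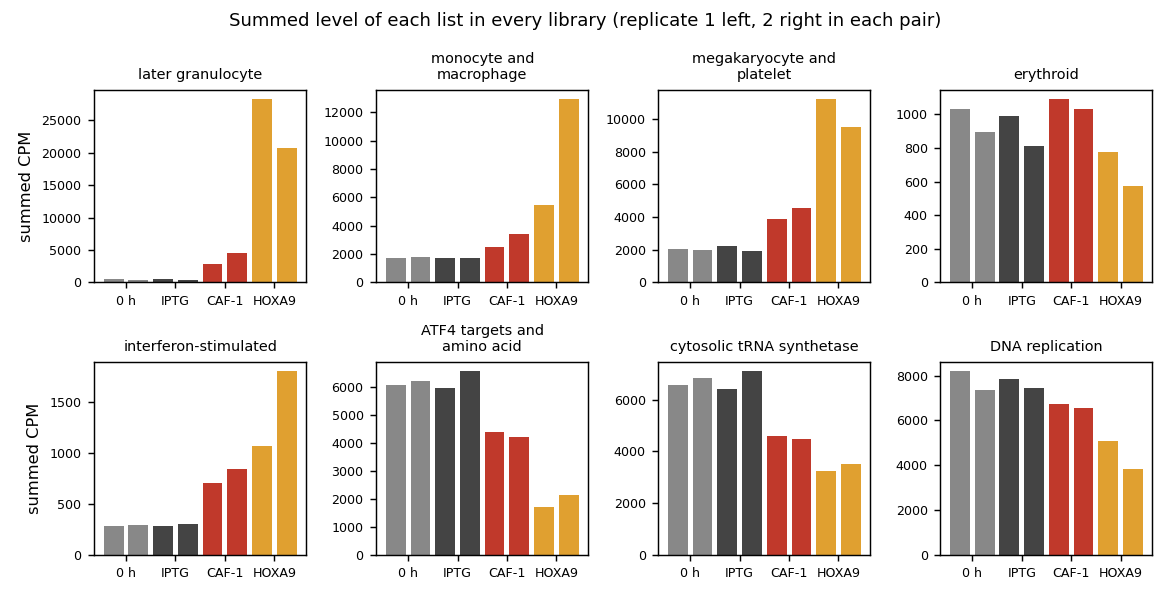
Summed CPM of the genes of a list in each of the 8 libraries, by group. The later granulocyte sum is 426 to 598 CPM in the references, 2771 and 4585 CPM in CAF-1 OFF and 28290 and 20710 CPM in HOXA9 OFF. The ATF4 sum is 5961 to 6568 CPM in the references, 4400 and 4196 CPM in CAF-1 OFF and 1693 and 2131 CPM in HOXA9 OFF.

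The progenitor genes did not go down as a group. Of 15 tested, 4 were called higher, 2 lower and 9 neither, and 11 were higher in CAF-1 OFF than in HOXA9 OFF cells. Kit was at 781 and 684 CPM in the CAF-1 OFF libraries, above the references but with a log2 difference of 0.23 (SE 0.12, edgeR adjusted p = 0.179), and HOXA9 OFF cells had 198 and 167 CPM. Cd34 was at 2165 and 1615 CPM, on either side of the references, against 251 and 242 CPM in the HOXA9 OFF libraries. Its log2 value of 0.11 turned to -0.14 without CAF-1 OFF replicate 1. Procr, the endothelial protein C receptor that marks stem cells, rose by 5.05 on the log2 scale. Meis1, a cofactor of HOXA9, was at 37.7 and 53.3 CPM in uninduced, 44.2 and 56.7 CPM in IPTG-treated control and 28.7 and 20.2 CPM in the CAF-1 OFF libraries (log2 -0.97, not called without replicate 2, edgeR adjusted p = 0.132). The 6 calls in the list fell to 2 without CAF-1 OFF replicate 2 and to 3 without any of the other libraries except IPTG-treated control replicate 2.

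Among transcription factors that steer myeloid fate, 7 of 21 tested were higher, 5 held and none was lower. Cebpe, which drives the late granulocyte programme, was at 123 and 73.2 CPM in uninduced, 106 and 77.6 CPM in IPTG-treated control and 277 and 423 CPM in the CAF-1 OFF libraries (log2 rise 1.88, SE 0.27, edgeR adjusted p = 0.00366). HOXA9 OFF cells were at 432 and 281 CPM, and CAF-1 OFF cells differed from them by -0.02 on the log2 scale. Runx1, a master factor of blood development, went from 35.7 to 40.3 CPM to 64.1 and 67.9 CPM (log2 rise 0.79). Sfpi1, the gene for the myeloid factor PU.1, was at 145 to 191 CPM in the references and 202 and 247 CPM in the CAF-1 OFF libraries, and its log2 difference of 0.39 did not pass (edgeR adjusted p = 0.0911). The count was 2 without CAF-1 OFF replicate 2, and 4 without CAF-1 OFF replicate 1 or uninduced replicate 1.

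**Figure D5:**
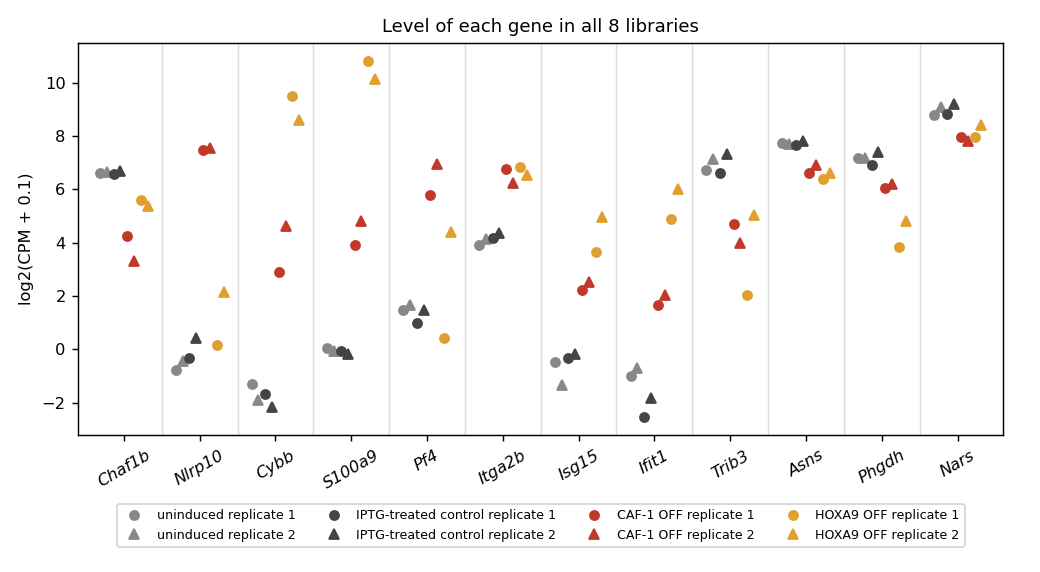
CPM of 12 genes in each of the 8 libraries on a log axis, with 0.1 CPM added; circles are replicate 1, triangles replicate 2, and colours are groups. Both CAF-1 OFF libraries lie above all 4 references for the genes that rose, such as Cybb (7.32 and 24.6 CPM against 0.123 to 0.312) and Itga2b, and below them for Chaf1b, Asns and Nars.

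Interferon-stimulated genes moved upward. All 31 tested members had a positive log2 value, 23 were called higher and 20 held, with a median of 2.13 and summed levels of 280.1 to 305 CPM in the references, 707 and 847 CPM in CAF-1 OFF and 1071 and 1807 CPM in the HOXA9 OFF libraries. Their promoters commonly hold the interferon-stimulated response element, at which IRF factors bind. The element, searched on both strands as GAAA and GAAAC separated by any 2 bases, is in 0.944% of the 27025 mouse promoters in the RefSeq table (GRCm38.p6, 250 bases before to 50 after each start). Of the 18 members called higher that had a promoter, 8 hold it, and sets were not compared. The element has 2 matches in each of the promoters of Isg15 and Ifit1, which are shown since both genes rose. Capitals mark the matches, which overlap in Isg15.
Isg15, chr4:156200769-156201068, minus strand: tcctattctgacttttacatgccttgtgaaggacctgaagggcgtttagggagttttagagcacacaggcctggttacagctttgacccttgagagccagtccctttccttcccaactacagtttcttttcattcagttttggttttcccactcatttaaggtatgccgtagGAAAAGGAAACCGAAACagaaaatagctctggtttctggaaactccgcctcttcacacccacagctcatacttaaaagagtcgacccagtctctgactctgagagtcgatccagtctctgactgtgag
Ifit1, chr19:34640639-34640938, plus strand: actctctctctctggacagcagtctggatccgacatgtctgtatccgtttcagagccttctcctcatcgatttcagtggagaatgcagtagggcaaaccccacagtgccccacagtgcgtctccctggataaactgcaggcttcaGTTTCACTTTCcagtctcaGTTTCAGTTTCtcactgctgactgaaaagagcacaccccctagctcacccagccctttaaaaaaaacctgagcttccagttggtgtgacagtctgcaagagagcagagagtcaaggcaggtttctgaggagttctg

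Isg15, a ubiquitin-like protein attached to other proteins in the antiviral response, was at 0.623 and 0.299 CPM in uninduced, 0.707 and 0.797 CPM in IPTG-treated control and 4.63 and 5.59 CPM in the CAF-1 OFF libraries. It rose by 3.10 on the log2 scale (SE 0.42, edgeR adjusted p = 0.00286). Ifit1, which binds viral RNA, was at 0.0707 to 0.513 CPM and then 3.05 and 4.03 CPM (log2 rise 3.81, SE 0.44). Irf7, the transcription factor that amplifies interferon production, was at 0.813 to 1.06 CPM and then 7.53 and 8.05 CPM (log2 rise 3.03, SE 0.24). All 3 kept their call without each library in turn, and were higher still in HOXA9 OFF cells, as were 22 of the 31 by test, with 1 lower. Without CAF-1 OFF replicate 2 the list had 14 calls.

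Inflammatory cytokines and chemokines were higher in 10 of 21 tested members, 7 held and none was lower, or 6 were called without CAF-1 OFF replicate 2. Il33, an alarm cytokine, was at 0.565 to 0.712 CPM in the references, 12.5 and 26.8 CPM in CAF-1 OFF and 0.705 and 0.347 CPM in the HOXA9 OFF libraries (log2 rise 4.92, SE 0.37, edgeR adjusted p = 0.000444). Il1rn, the interleukin 1 receptor antagonist, rose by 2.71 and stood at 3.90 and 5.07 CPM, against 54.0 and 101 CPM in the HOXA9 OFF libraries. The NKG2D ligand genes Raet1c and Raet1d, whose products flag stressed cells to NK cells, both rose. Raet1d was at 0.757 to 1.04 CPM and then 31.8 and 63.7 CPM (log2 rise 5.79), but 61.2% of the 50-base windows of its transcripts are unique, the rest being shared with Raet1c, so the 2 genes are not cleanly separated. Nlrp10, a NOD-like receptor, had the highest log2 fold change among held genes with a mean log2 CPM of 2 or more over the 8 libraries, a limit that leaves out genes almost silent in all but the CAF-1 OFF libraries, such as Tub. It was at 0.490 to 1.23 CPM in the references and 178 and 188 CPM in the CAF-1 OFF libraries (log2 rise 7.93, SE 0.42, edgeR adjusted p = 0.000142).

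Among the lists, most calls downward were in those of amino acid supply and protein synthesis. ATF4 is the transcription factor that raises amino acid synthesis and transport when amino acids run short. Of 25 tested ATF4 target and amino acid genes 13 were lower, 9 of them held, and 1 was higher, with a list median of -0.82. Summed levels were 5961 to 6568 CPM in the references, 4400 and 4196 CPM in CAF-1 OFF and 1693 and 2131 CPM in the HOXA9 OFF libraries. In a direct test 11 members were higher in CAF-1 OFF than in HOXA9 OFF cells and none was lower, against 22.2% and 21.4% of all genes. ATF4 acts at elements of the composite form TGATGNAA, present on either strand in 4.51% of the same promoters. Of the 12 members called lower that had a promoter, 4 hold such an element. Promoters are shown for Asns, whose match is in capitals 23 bases before the start, and for Trib3, whose match is on the other strand beginning 14 bases after it.
Asns, chr6:7693160-7693459, minus strand: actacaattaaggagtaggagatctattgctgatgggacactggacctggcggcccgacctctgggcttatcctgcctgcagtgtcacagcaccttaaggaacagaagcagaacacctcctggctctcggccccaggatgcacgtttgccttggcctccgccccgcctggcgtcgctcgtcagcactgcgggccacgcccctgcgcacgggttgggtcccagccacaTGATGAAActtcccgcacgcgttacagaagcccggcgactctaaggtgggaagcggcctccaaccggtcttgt
Trib3, chr2:152344011-152344310, minus strand: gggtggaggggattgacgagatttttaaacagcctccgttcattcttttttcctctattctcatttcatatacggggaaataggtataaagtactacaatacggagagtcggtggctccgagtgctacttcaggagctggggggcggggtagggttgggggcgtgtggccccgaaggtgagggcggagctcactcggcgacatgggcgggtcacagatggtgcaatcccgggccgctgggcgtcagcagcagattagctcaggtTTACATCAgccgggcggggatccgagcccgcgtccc

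Asns, asparagine synthetase, was at 211 and 209.6 CPM in uninduced, 202 and 227 CPM in IPTG-treated control and 96.6 and 121 CPM in the CAF-1 OFF libraries. It fell by 0.96 on the log2 scale with SE 0.12 (edgeR adjusted p = 0.00243), held against each reference and kept its call without each library in turn. Trib3, a pseudokinase induced by ATF4, was at 97.8 to 159 CPM and then 25.6 and 15.9 CPM, a log2 value of -2.60 whose adjusted p of 0.0306 by edgeR was 0.064 to 0.221, over the threshold, without any of the 6 libraries but IPTG-treated control replicate 1. Atf4 itself was at 519 to 589.8 CPM in the references and 279 and 243 CPM in the CAF-1 OFF libraries (log2 -1.06, edgeR adjusted p = 0.00461, or 0.0664 without CAF-1 OFF replicate 2). Psat1, an enzyme of serine synthesis, was at 1248 and 1075 CPM, below all 4 references, with a log2 difference of -0.41 that is under 1.5-fold. The 14 calls of this list became 3 without CAF-1 OFF replicate 2, 8 without CAF-1 OFF replicate 1 or IPTG-treated control replicate 2, and 9 without uninduced replicate 2.

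Cytosolic tRNA synthetases, which load amino acids onto tRNA, were lower in 8 of 20 tested members, 7 held and none was higher. Their sum was 6423 to 7106 CPM in the references, 4599 and 4490 CPM in CAF-1 OFF and 3255 and 3504 CPM in the HOXA9 OFF libraries. Gars, the glycine enzyme, was at 393 and 454 CPM in uninduced, 384 and 475 CPM in IPTG-treated control and 198 and 199 CPM in the CAF-1 OFF libraries (fell by 1.11 on the log2 scale with an SE of 0.13, edgeR adjusted p = 0.00184). Nars, the asparagine enzyme, was at 441 to 586 CPM and then 247 and 223 CPM (log2 -1.10, not called without CAF-1 OFF replicate 2, adjusted p = 0.0692). Of 27 ribosome biogenesis genes none had a positive log2 value, 6 were lower and 5 held. Their sum was 7277 and 6915 CPM in CAF-1 OFF and 3001 and 2846 CPM in the HOXA9 OFF libraries. By direct test 23 of them were higher in CAF-1 OFF than in HOXA9 OFF cells and none was lower. Wdr12, an assembly factor of the large ribosomal subunit, was at 174 to 181 CPM and then 97.1 and 83.2 CPM (fell by 0.98, SE 0.10). Without CAF-1 OFF replicate 2, 2 synthetase genes and 1 ribosome biogenesis gene were called.

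Among the genes of the machinery CAF-1 works beside, calls downward were near the 3.98% of all genes. Of 37 DNA replication genes 1 was lower and none was higher, with a median of -0.18 and no member that held, and the single call was lost without CAF-1 OFF replicate 2, uninduced replicate 2 or IPTG-treated control replicate 2. The summed levels were nonetheless below all 4 references in both CAF-1 OFF libraries, at 6757 and 6536 CPM against 7356 to 8205 CPM for DNA replication, 5511 and 5152 CPM against 6260.1 to 6598 CPM for histone chaperones, and 4207 and 3829 CPM against 4671 to 4892 CPM for heterochromatin and DNA methylation genes. In the HOXA9 OFF libraries these sums were 5069 and 3822 CPM, 4143 and 3463 CPM, and 3257.5 and 2912 CPM, in the same order. Pcna, the sliding clamp that recruits CAF-1 to the fork, was at 260.4 to 304 CPM in the references and 236 and 225 CPM in the CAF-1 OFF libraries (log2 -0.28, edgeR adjusted p = 0.0866). The log2 difference of Mcm5, a subunit of the replicative helicase, was -0.30 (adjusted p = 0.145). Of 30 mitosis genes 3 were higher, none of them without CAF-1 OFF replicate 2. Of 30 heterochromatin and DNA methylation genes 1 was lower (0 to 3 when single libraries were left out), of 24 p53 targets 3 were higher and 1 lower (1 to 2 calls in all without CAF-1 OFF replicate 2, IPTG-treated control replicate 2 or either uninduced library), and of the 9 imprinted and 23 cholesterol synthesis genes none was called. Histone chaperones other than Chaf1b had a single call, Npm1, which shuttles histones and ribosomal proteins in the nucleolus. It was at 958 to 1140.0 CPM and then 647 and 544 CPM (log2 -0.83, and not called without CAF-1 OFF replicate 2, edgeR adjusted p = 0.0539). Pmaip1, which encodes the cell death protein NOXA, was the p53 target that held as higher, at 31.6 to 45.3 CPM and then 76.0 and 77.7 CPM (log2 rise 0.95).

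Genes that rose were at times neighbours on the chromosome. Counting tested genes in order along the genome, 73 runs of at least 3 adjacent genes called higher held 261 genes, 15.1% of the genes called higher that had a position. A single run of lower genes was found, Col5a3, Angptl6 and Ppan on chromosome 9, with 0.579% of the lower genes. The 13.4% of genes called higher and the 3.98% called lower give unlike chances of a run, and no difference between the directions was tested. The longest run had 7 genes of the Schlafen family, regulators of lymphocyte and myeloid growth, at chr11:82764851-83003723 (mm9), from Slfn5 to Slfn4. Their log2 fold changes ran from 1.04 to 6.11 and 6 held. Slfn1 had reads in 1 of the 4 references, IPTG-treated control replicate 1 (0.0707 CPM), and stood at 0.579 and 1.62 CPM in CAF-1 OFF and 22.8 and 26.4 CPM in the HOXA9 OFF libraries, a ratio of 84.1 to the references with a 95% counting interval of 14.3 to 3398. Some other runs were family clusters too, with 5 Ms4a membrane protein genes at chr19:11479260-11679339 that all held (log2 1.35 to 5.91), and 4 guanylate-binding protein genes, Gbp5, Gbp7, Gbp3 and Gbp2, at chr3:142159864-142300972 that all held. Without CAF-1 OFF replicate 2, when 527 genes were called higher in all, Slfn5, Slfn4, Ms4a6b and Gbp3 were not called (edgeR adjusted p = 0.0536 to 0.111), so none of these 3 runs is whole without that library. Genes of a family share sequence, and reads that fit several genes are not counted by HTSeq.

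The 10 lowest held genes with a mean log2 CPM of 2 or more had log2 values from -2.90 to -1.61, while the highest under that limit reached 7.93. Below the limit values went further in both directions, as with Tub at 12.80 and Aldh1l2, a mitochondrial folate enzyme, at -4.19. Tub was below the floor of 3 reads in every reference library, so the size of its value is poorly fixed. Aldh1l2 was not called without either CAF-1 OFF library, uninduced replicate 2 or IPTG-treated control replicate 2 (edgeR adjusted p = 0.0534 to 0.181). Among the 10 lowest held genes with a mean log2 CPM of 2 or more, Chaf1b, Avil, Ptpru and Paqr3 kept their calls without each library in turn. Avil, which encodes the actin-binding protein advillin, was at 8.50 and 11.9 CPM in uninduced, 8.97 and 15.8 CPM in IPTG-treated control and 2.21 and 2.30 CPM in the CAF-1 OFF libraries (fell by 2.32 on the log2 scale with an SE of 0.31, edgeR adjusted p = 0.00286).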

How the data were processed

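RNA from iGMPs was sequenced as strand-specific libraries. The authors aligned the reads to mm9 with STAR, counted them per gene with HTSeq and deposited raw counts, 1 file per library, and annotation and strand setting are not given in the sources used here. The data were analysed from these counts. Reads outside genes (5.30% to 14.6%), ambiguous reads and multiply aligned reads entered no library size. Genes were filtered by edgeR's filterByExpr, and all 8 libraries were fitted in 1 quasi-likelihood model with TMM scaling (edgeR 4.0.16, R 4.3.3, limma 3.58.1), the groups sharing 1 estimate of spread. The pooled reference is the average of both reference groups. Mean log2 CPM used a prior count of 2. Alternatives were other scalings, filters and thresholds, DESeq2 1.42.0, a replicate block, the 6 libraries alone and leaving out each library. On simulated counts (12772 genes), 40.8% of genes changed 2-fold and 85.7% of genes changed 4-fold were called in the comparison with the pooled references. Only 48 to 50 genes were changed at each fold, far fewer than were called in the data, so these shares do not carry over. Intervals cover counting error only. Gene positions are from GENCODE vM1 (mm9), and 75.7% of tested genes had a RefSeq promoter, too few to compare motifs between sets. The libraries, gene lists and rules were chosen with earlier results of these data known. Named were the CAF-1 subunits, the 20 highest and 10 lowest held genes whose mean log2 CPM reached 2, up to 6 called members per list with others whose level describes it, 5 genes that depended on the reference, and genes in runs. Figures were drawn with matplotlib 3.10.9.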

Additional observations from a re-analysis of the deposited data

Results flagged for a closer look

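Of the 166 values tested, 7 had 1 library standing apart from the other 3 references (Dixon's test at the 95% level), where chance alone flags about 1 in 20. In IPTG-treated control replicate 1, 14.6% of reads fell outside genes, against 5.30% to 6.88% in the other references, and Ern1, a sensor of unfolded proteins, was at 165 CPM against 140 to 145 CPM. In IPTG-treated control replicate 2, Prf1 was at 1.47 CPM against 0.565 to 0.642 CPM, and the epithelial factor Grhl2 was at 0.307 CPM against 0.636 to 0.684 CPM. In the same library Bnipl was at 0.307 CPM and Gm16758 at 0.491 CPM, with no read in the other references. In uninduced replicate 1 Siglec5, an inhibitory receptor of myeloid cells, was at 39.6 CPM against 34.2 to 34.9 CPM. Against the pooled references Prf1 and Siglec5 stayed called without each library in turn, Ern1 was not called without CAF-1 OFF replicate 2 (edgeR adjusted p = 0.103), Grhl2 was not called without any 1 of the 6 libraries (0.0592 to 0.338), and Gm16758 and Bnipl are genes whose call depended on the reference.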

How the results depend on the processing

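Calls upward outnumbered calls downward in each CAF-1 OFF comparison with the references under every alternative run. A test against a 1.5-fold change (glmTreat) left 870 calls against the pooled references, 506 against uninduced and 468 against IPTG-treated control cells, and 400 held. An adjusted p under 0.01 with a 2-fold change left 802, 364, 282 and 263. Dropping the fold threshold gave 3783 calls against the pooled references, 57.6% of them higher. Between the references edgeR called 0 genes and DESeq2 5. Leaving out single libraries gave 606 to 2097 calls against the pooled references, 157 to 1553 against uninduced cells, 199 to 1380 against the IPTG-treated control and 155 to 1057 held. With DESeq2 2179 genes were called and 1582 held, and with library-size scaling 2233 and 1427. The replicate number as a block gave 2482 calls against the pooled references and 1714 held. The deviations of same-numbered libraries correlated at 0.48 between the reference groups but at -0.04 and -0.02 with CAF-1 OFF. With HOXA9 OFF they correlated at 0.30 (uninduced), 0.32 (IPTG-treated control) and 0.08 (CAF-1 OFF). The numbers were therefore not taken to pair all groups. Of the 186 named genes called, 89 were called without each of the 6 libraries in turn and 95 lost the call without CAF-1 OFF replicate 2. Leaving out single libraries, the log2 difference of Ltf ran from -0.0427 (without IPTG-treated control replicate 2) to 0.69 and that of Cd34 from -0.14 (without CAF-1 OFF replicate 1) to 0.30. Causes were not tested. On simulated counts for the comparison with the pooled references, 12.5% of genes changed 1.5-fold were called, so a gene not called may still have changed. A call needs an estimated change of at least 1.5-fold, which many genes with a true 1.5-fold change miss by design. Far fewer genes were changed in the simulation than called in the data, which makes the adjusted p stricter there. The share is therefore no detection rate for the data.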
